A study of Mus musculus with 3 samples.

Results

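Cells with NK receptor transcripts, no Cd3 transcript and at most 1 T cell receptor UMI, called resting NK cells here, made up 1697 of the 71909 cell barcodes that were kept from tumors of treated mice. The cells were chosen by a rule on raw transcript counts, that is on unique molecular identifiers (UMIs). A barcode needed at least 200 detected genes and a mitochondrial share of its UMIs of at most 20%. It needed at least 2 UMIs in all of Ncr1, Klrb1c, Klra4, Klra8 and Klre1, which encode NKp46, NK1.1, a pair of Ly49 receptors and a C-type lectin-like receptor of NK cells. It had to lack Cd3d, Cd3e and Cd3g, and to hold under 2 UMIs when Trac, Trbc1 and Trbc2 were added to these. Barcodes with 5 or more UMIs of Lyz2, C1qa, C1qb, S100a8 and S100a9, or 3 or more of Mki67 and Top2a, were left out, so "resting" here means few transcripts of these last 2 genes and nothing more.

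The mice were B6129SF1/J hybrids that received 500000 KP1 small cell lung cancer cells, a line mutant for Rb and p53, under the skin. Each cytokine was given at 3 µg on alternate days between days 7 and 19, and CD45+ live cells were sorted from the tumors on day 19 for droplet sequencing of transcript ends. The mono-IL-10 group (Supermono-10 in the labels) received a monomeric IL-10. The IL-10/2-Trikine group (10/2-Trikine) received this IL-10 fused to a binder that adds the IL-2 receptor beta chain to the IL-10 receptor. The combination group (10/2-Trikine + PD1) received the same Trikine plus an antibody to PD-1, listed at 200 µg on days 7, 11, 15 and 19. Each group was 1 library, the number of mice behind it is not given in the sources used here, and no untreated library was analysed here. The protocol text can also be read as giving anti-PD-1 to every group, although the antibody is named in the title and treatment of that library only, and the study elsewhere gives an earlier first cytokine dose. The labels call the cells T cells, whereas the sort took all CD45+ cells.

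NK cells are innate lymphocytes that kill stressed or transformed cells with granzymes and perforin and release IFN-γ and chemokines. Their activity is set by the balance of activating receptors, such as NKp46 and NKG2D, and inhibitory receptors, such as many of the Ly49 family, which bind class I MHC. They carry the beta and gamma chains of the IL-2 receptor, through which IL-2 and IL-15 activate STAT5, while IL-10 acts mainly through STAT3. In mice, immature NK cells express CD27 and TCF-1, mature ones gain CD11b and KLRG1, and the related type 1 innate lymphoid cells carry CD49a, encoded by Itga1.

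With 1 library per group there was no replicate, so no difference between groups could be tested and no p-value is given. The intervals are 95% and cover counting error only, not the spread between mice. Those of CPM and of CPM ratios count each UMI as independent, so they also leave out the spread between cells. Levels are in CPM, the usual scaled count: the UMIs of a gene over the summed UMIs of the resting NK cells of its library, which were 1155058, 1506505 and 2370213 UMIs in the mono-IL-10, IL-10/2-Trikine and combination libraries. Values in a row below follow that order. Genes were compared where a pair of libraries held at least 50 UMIs, and a gene was counted as higher or lower when its CPM ratio passed 1.5-fold. Over all genes compared, 3.57% were higher and 8.28% lower with IL-10/2-Trikine than with mono-IL-10. In the combination 6.45% were higher and 3.74% lower than with IL-10/2-Trikine. Counts in the lists below are to be read beside these shares. The IL-10/2-Trikine library enters both comparisons, so a value that is low or high there moves both ratios, in opposite directions.

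The libraries held 158570946 to 197176873 UMIs. A resting NK cell held a median of 3301 UMIs with mono-IL-10, 2733 with IL-10/2-Trikine and 2813.5 with the combination, so the mono-IL-10 cells were the deepest. Median mitochondrial shares were 1.26% to 1.40%. No barcode was a resting NK cell in more than 1 library, although 137 to 180 kept barcodes were shared by a pair of libraries. An automatic doublet threshold marked 2782 barcodes of the mono-IL-10 library and 0 in either of the others, and was not used. The tenth of barcodes with the highest doublet scores held 8, 5 and 29 resting NK cells.

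Resting NK cells were a larger share of the sorted cells in both IL-10/2-Trikine libraries than in the mono-IL-10 library. They were 335 of 22235 kept barcodes with mono-IL-10, a share of 1.51% (1.35 to 1.68%, exact binomial). They were 524 of 22707 with IL-10/2-Trikine, or 2.31% (2.12 to 2.51%), and 838 of 26967 in the combination, or 3.11% (2.90 to 3.32%). The 3 intervals did not overlap. For cells well inside the rule, with 10 or more NK receptor UMIs, the shares were 0.967% (0.843 to 1.10%), 1.15% (1.01 to 1.30%) and 1.35% (1.22 to 1.49%), and neighbouring intervals overlapped. The share of all resting NK cells was 1.53-fold higher with IL-10/2-Trikine than with mono-IL-10 (1.34 to 1.75) and 1.35-fold higher in the combination than with IL-10/2-Trikine (1.21 to 1.5). When barcodes with fewer than 2000 UMIs were left out, the others thinned to 2000 UMIs and the rule applied afterwards, which kept 17602, 19585 and 21400 barcodes, the first ratio was 1.17 (1.04 to 1.31) and the second 1.45 (1.31 to 1.60). The parts of the thinning and of the lost barcodes in this shift were not tested apart. This variant chose a larger set, 488, 633 and 1002 cells, whose full counts were then summed. Cells that the rule bars at full depth, for example by a Cd3 UMI, could enter it.

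A share of sorted cells depends on every other cell type in the sort. B cells and macrophages were counted here, and below unless stated, only in barcodes without a Cd3 or NK receptor UMI. B cells also had to pass the myeloid limit and macrophages the cycling limit. So counted, B cells were 2.52%, 0.432% and 0.382% of kept barcodes and macrophages 12.8%, 5.61% and 10.5%. These were 560, 98 and 103 B cells and 2851, 1274 and 2827 macrophages. Without the Cd3, myeloid and cycling limits there were 1060, 201 and 249 B cells and 4928, 2233 and 4594 macrophages. Per 100 macrophages of the narrower count there were 11.8, 41.1 and 29.6 resting NK cells, an order that differs from that of the shares of all barcodes. Cells with NK receptor transcripts and at least 1 Cd3 UMI, which passed the myeloid and cycling limits, were 5.22%, 11.3% and 10.5% of barcodes and far outnumbered the resting NK cells. A change in NK cell number in the tumor cannot be told apart from a change in the other sorted cells.

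**Figure D1:**
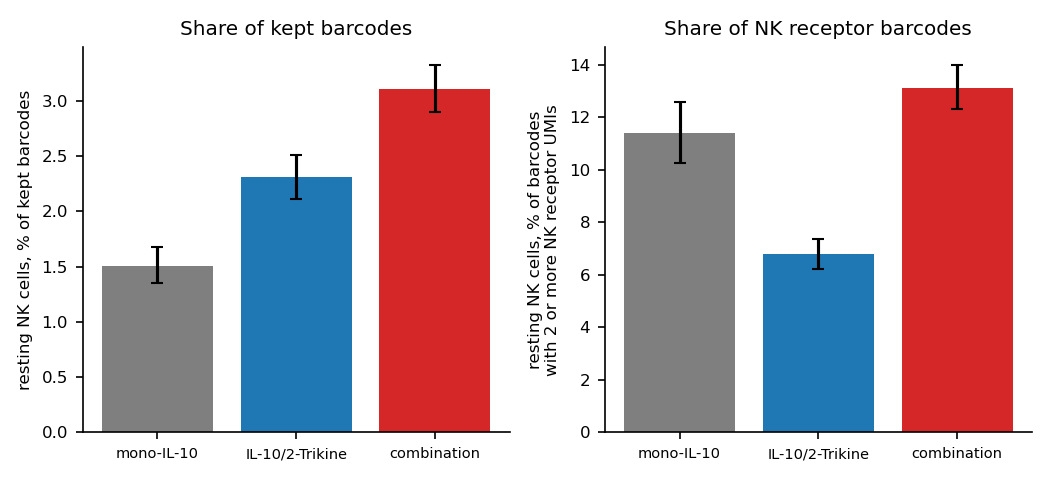
Resting NK cells as a share of kept barcodes (left, in percent) and of barcodes with at least 2 NK receptor UMIs (right, in percent) in the 3 libraries, with exact 95% binomial intervals. The left bars climb from 1.51% to 3.11%, while on the right the IL-10/2-Trikine bar, 6.78%, is below the other two.

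The Cd3 step removed most NK receptor barcodes. Of the 2939, 7724 and 6382 barcodes with 2 or more NK receptor UMIs, 74.1%, 84.2% and 73.0% held a Cd3 UMI, and a further 354, 617 and 747 held 2 or more UMIs of the T cell receptor and Cd3 genes. The myeloid limit removed 64, 49 and 110 and the cycling limit 8, 32 and 27. Resting NK cells were therefore 11.4% (10.3 to 12.6%), 6.78% (6.23 to 7.37%) and 13.1% (12.3 to 14.0%) of NK receptor barcodes. Cd3 UMIs were also counted in cells that should lack them, here the wider sets of macrophages and B cells without a Cd3 limit. After thinning to 2000 UMIs, 20.3%, 21.9% and 16.2% of macrophages and 21.6%, 20.1% and 20.7% of B cells held a Cd3 UMI, against 67.1%, 79.6% and 70.1% of NK receptor barcodes, so NK cells with a stray Cd3 UMI may lie outside the rule. Free RNA and doublets with T cells were not told apart as sources of these UMIs.

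The values that chose the cells were, in CPM, 822, 691 and 545 for Ncr1, 582, 622 and 579 for Klrb1c, 1003, 872 and 796 for Klra4, 664, 492 and 551 for Klra8, and 949, 1018 and 908 for Klre1. They describe the choice and support nothing. The sum of these genes per cell had a median of 12, 9 and 8 UMIs. Cells just inside the limit, with a sum of 2, numbered 18, 42 and 107, which was 5.37%, 8.02% and 12.8% of the resting NK cells. Barcodes just outside, with a sum of 1, numbered 74, 149 and 328. The cells inside had 476, 7850 and 6613 CPM of Gzma, and those outside 693, 609 and 1381 CPM, so Gzma was higher inside the edge in both Trikine libraries and not in the mono-IL-10 library, where the value inside rested on 14 UMIs. Nkg7 was higher inside in every library, at 510, 1280 and 1428 CPM against 95.5, 88.6 and 277 CPM outside, and so were Klrd1, Prf1 and Il2rb. Fcer1g was lower inside than outside with mono-IL-10, at 612 against 1183 CPM, and Tyrobp was at 1019 against 1117 CPM there and at 728 against 712 CPM in the combination. Median UMIs at the edge were low, 799, 730.5 and 957 inside and 1326.5, 841 and 823.5 outside. A single T cell receptor UMI was present in 51.0%, 48.5% and 45.8% of the cells.

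The label was checked with 20 NK genes that the rule did not use. All 20 were detected in each library. Their summed level was 27676, 33858 and 31227 CPM, against 13462, 21067 and 18988 CPM in the cells with NK receptor and Cd3 transcripts and 5525, 9179 and 9638 CPM in droplets with at most 50 UMIs, which hold free RNA. Tyrobp and Fcer1g, the adaptor chains of NK activating receptors, stood at 1794, 1930 and 1764 CPM and at 1763, 2001 and 1928 CPM. In the cells with Cd3 Tyrobp was 369, 477 and 501 CPM. Klrk1, which encodes NKG2D, stood at 991, 814 and 757 CPM, and Klrd1, its CD94 relative, at 931, 1073 and 860 CPM. Eomes and Itga2, which encodes CD49b, mark NK cells against most T cells and were present at 377, 266 and 370 CPM and at 444, 421 and 389 CPM. Among the 20 genes 0 passed 1.5-fold between mono-IL-10 and IL-10/2-Trikine, where 3.57% of all genes were higher and 8.28% lower. Between the combination and IL-10/2-Trikine 1 was past 1.5-fold lower and 0 higher, where the shares over all genes were 3.74% and 6.45%.

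Marker lists of other cell types were summed in the resting NK cells. At least 2 UMIs of the T cell list were held by 35.2%, 26.1% and 27.0% of the cells, and of the dendritic cell list by 26.6%, 9.92% and 24.6%, lowest with IL-10/2-Trikine. The summed T cell marker list was 419, 368 and 390 CPM, against 1926 to 2828 CPM in the cells with Cd3. The B cell list summed to 214, 56.4 and 44.3 CPM, and 20 mono-IL-10 cells, 5.97% of them, held at least 2 B cell UMIs. In the IL-10/2-Trikine cells 5 of the 10 B cell markers were at 0, Ms4a1, Ebf1, Pax5 and Ly6d among them. The macrophage list summed to 874, 1023 and 862 CPM, against 6671 to 7139 CPM in macrophages, with Adgre1, Mrc1 and Arg1 at 0 in the IL-10/2-Trikine cells. Most of that sum came from Ccr2, at 456, 395 and 296 CPM, and Ly6c2, at 178, 325 and 306 CPM, which NK cells also express, while C1qc was at 29.4, 4.65 and 29.1 CPM. Neutrophil markers summed to 16.6 to 28.6 CPM, with Retnlg and Ly6g at 0 throughout, and KP1 tumor cell markers to 28.6, 81.0 and 122 CPM, with Krt8 at 0 throughout. Dendritic cell markers summed to 690, 500 and 837 CPM and type 2 innate lymphoid markers to 192, 160 and 208 CPM, with Il5 and Hs3st1 at 0 in all 3 libraries.

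Of 17 cytotoxic genes measured, 3 were past 1.5-fold higher and 1 lower with IL-10/2-Trikine than with mono-IL-10, and their median log2 ratio was 0.24 (-0.06 to 0.51) beside -0.08 over all genes. Across all genes compared, 3.57% were past 1.5-fold higher and 8.28% past 1.5-fold lower in this comparison, which was 220 and 511 of 6170 genes. With TMM scaling the same comparison gave 348 higher and 339 lower, so that the share of calls that were higher went from 30.1% to 50.7%. In other cells the median of the cytotoxic list was 0.10 with Cd3, 0.32 in macrophages and 0.45 in B cells. Genes past 1.5-fold higher were 2 of 19, 3 of 13 and 2 of 4, and 2, 1 and 0 were lower. Over all genes of those cells the medians were -0.11, -0.005 and -0.29, with 3.58%, 4.12% and 6.80% higher.

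Gzma, which encodes granzyme A, stood at 12873 CPM with mono-IL-10, 18316 CPM with IL-10/2-Trikine and 16334 CPM in the combination. Gzmb, which encodes granzyme B, stood at 5239, 7737 and 7026 CPM. Both were lowest in the mono-IL-10 library, by 1.42-fold (1.39 to 1.45) for Gzma and 1.48-fold (1.43 to 1.52) for Gzmb against IL-10/2-Trikine. Prf1, which encodes perforin, stood at 2195, 2843 and 2710 CPM, a ratio of 1.30 (1.23 to 1.36). In cells with Cd3 the Prf1 ratio was 0.746, while Gzma there stood at 6586, 14142 and 11376 CPM and Gzmb at 4961, 5577 and 6039 CPM. In droplets of free RNA Gzma was 1474, 5184 and 4433 CPM, and the part of free RNA in the result was not tested.

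The 3 effector genes past 1.5-fold were smaller in level. Serpinb9b, an intracellular serpin of cytotoxic cells, stood at 295, 455 and 403 CPM and was 1.54-fold higher with IL-10/2-Trikine (1.35 to 1.76). Gzmk, which encodes granzyme K, stood at 64.1, 125 and 161 CPM, 1.96-fold higher (1.49 to 2.60). Gzmc, which encodes granzyme C, a gene of strongly stimulated killers, stood at 21.6, 36.5 and 13.1 CPM and was found in 14, 20 and 21 cells. Tnfsf10, which encodes the death ligand TRAIL, was 1.60-fold lower with IL-10/2-Trikine, at 51.9 against 32.5 CPM. Fasl, another death ligand, stood at 277, 327 and 352 CPM.

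The combination changed this group little against IL-10/2-Trikine alone. There 6.45% of 7087 genes were past 1.5-fold higher and 3.74% past 1.5-fold lower, that is 457 and 265 genes. Of the 17 cytotoxic genes 1 was higher and 1, Gzmc, lower, with a median log2 ratio of 0.06 beside 0.01 over all genes. Gzma, Gzmb and Prf1 were 0.892, 0.908 and 0.953 of their IL-10/2-Trikine levels.

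**Figure D2:**
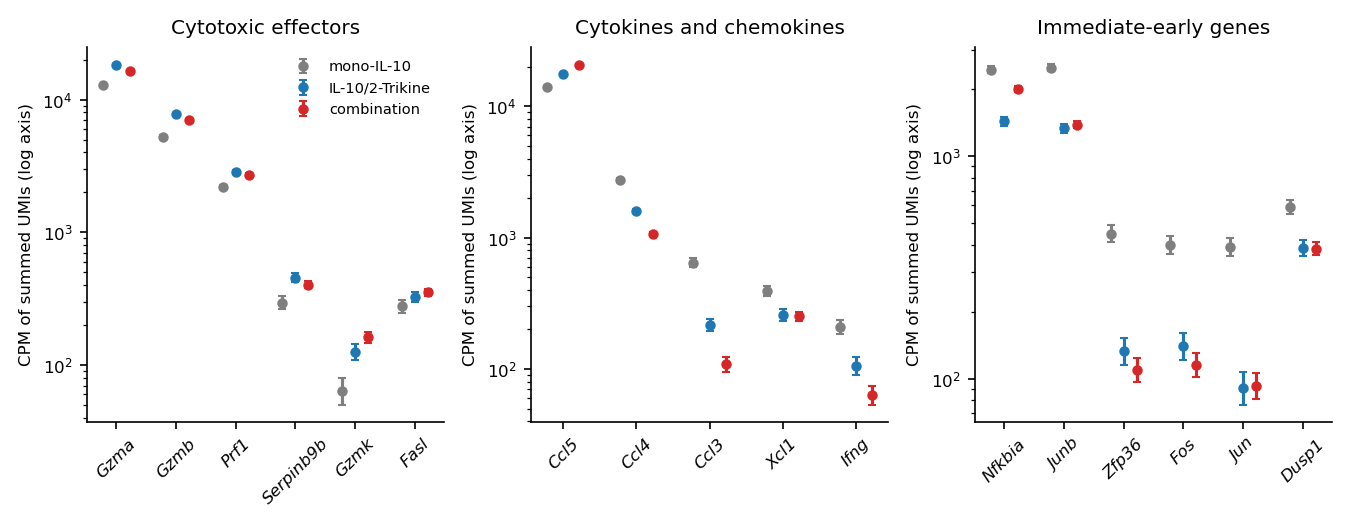
CPM of summed UMIs in resting NK cells (log axis) for 6 effector genes, 5 cytokine and chemokine genes and 6 immediate-early genes in the 3 libraries, with 95% Poisson intervals. Gzmb was lowest with mono-IL-10 at 5239 CPM, while Ccl3, Ifng and Jun were highest there at 646, 210 and 392 CPM.

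Of 11 genes of secreted cytokines and chemokines measured, 6 were past 1.5-fold lower and 1 past 1.5-fold higher with IL-10/2-Trikine than with mono-IL-10, with a median log2 ratio of -0.61 (-1.26 to 0.32). In the combination 4 were lower and 1 higher than with IL-10/2-Trikine.

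Ifng, which encodes IFN-γ, stood at 210 CPM with mono-IL-10, 106 CPM with IL-10/2-Trikine and 63.3 CPM in the combination. It was 1.99-fold lower at the first step and 1.67-fold lower at the second. Ccl3 and Ccl4, which encode inflammatory chemokines, showed the same order, with Ccl3 at 646, 217 and 108 CPM and Ccl4 at 2768, 1592 and 1068 CPM. For these 3 genes each library lay below the one before it, with intervals of the ratios, 0.410 to 0.618 and 0.476 to 0.754 for Ifng, that left out 1.

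Not every secreted product was lower. Ccl5, the chemokine with the highest level here, stood at 14083, 17529 and 20785 CPM, higher at each step by 1.24-fold and 1.19-fold. Xcl1, which encodes a chemokine that draws dendritic cells, stood at 392, 257 and 252 CPM and Ltb, which encodes lymphotoxin beta, at 68.4, 28.5 and 28.3 CPM, both lower with IL-10/2-Trikine and nearly level after it. Spp1 was the gene past 1.5-fold higher, at 162, 264 and 163 CPM, in 29, 80 and 82 cells. Its log2 ratio of 0.70 became -0.13 in the larger set of cells chosen after thinning to 2000 UMIs. Cxcl10, an IFN-γ-induced chemokine, stood at 58.9, 31.9 and 94.5 CPM in 16, 17 and 65 cells. In droplets of free RNA Cxcl10 was 117, 159 and 269 CPM and the part of this in the result was not tested.

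The NK receptor cells with Cd3 differed from resting NK cells in the second step. There Ifng stood at 288, 85.4 and 169 CPM and Ccl3 at 586, 160 and 408 CPM, so both were 1.98-fold and 2.54-fold higher in the combination than with IL-10/2-Trikine. In resting NK cells the same ratios were 0.600 and 0.50. The difference between the 2 populations was not tested.

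The share of cells with a UMI was compared after each cell was thinned to 1000 UMIs. This left 317, 482 and 742 cells, after 18, 42 and 96 shallower ones were dropped. A Gzmb UMI was found in 70.0%, 82.6% and 84.1% of cells (78.5%, 84.5% and 85.7% before thinning), against 3.25%, 6.12% and 7.77% of B cells, which should lack it. Median depths before thinning were 3455, 3774 and 3908 UMIs in B cells. An Ifng UMI was found in 15.8% (11.9 to 20.3%), 6.22% (4.24 to 8.77%) and 4.99% (3.53 to 6.81%), and in 31.3%, 13.0% and 10.6% before thinning, against at most 2.04% of B cells. For Ccl4 the shares were 47.0%, 32.2% and 26.4%, against 4.85% to 5.60% of B cells, and 61.5%, 44.5% and 40.1% before thinning. After thinning, the mono-IL-10 interval was apart from the IL-10/2-Trikine interval for these 3 genes, whereas IL-10/2-Trikine and combination intervals overlapped. Before thinning the first pair of Gzmb intervals also overlapped. For Gzma and Prf1 the intervals overlapped at both steps.

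**Figure D3:**
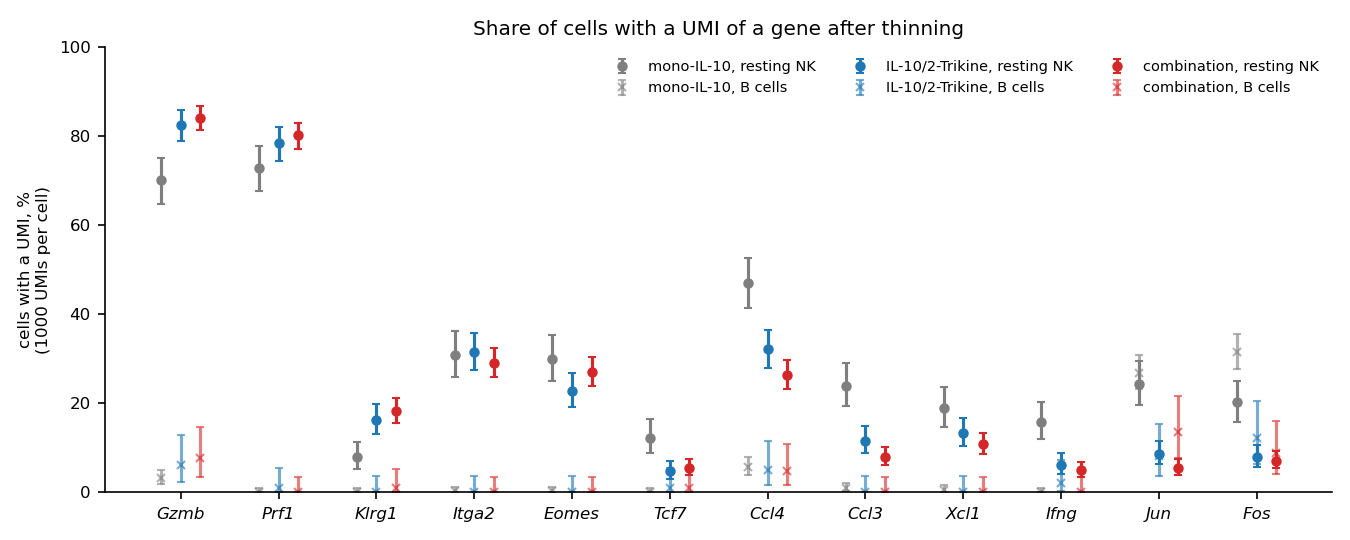
Percent of cells with at least 1 UMI of a gene after thinning each cell to 1000 UMIs, for 12 genes in resting NK cells (circles) and B cells (crosses) of the 3 libraries, with exact 95% binomial intervals. Gzmb goes from 70.0% to 84.1% across the libraries and Ifng from 15.8% to 4.99%, and the B cell shares of Jun and Fos also differ between libraries.

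The chains of the IL-2 and IL-10 receptors were present unevenly. Per the study, the binder of the Trikine attaches to the beta chain of the IL-2 receptor and not to the gamma chain. Il2rb and Il2rg, the beta and gamma chains of the IL-2 receptor, stood at 762, 707 and 830 CPM and at 526, 440 and 521 CPM. Il10ra and Il10rb, the chains of the IL-10 receptor, stood at 82.2, 37.8 and 44.3 CPM and at 119, 107 and 94.9 CPM. Il10ra was thus 2.17-fold lower with IL-10/2-Trikine than with mono-IL-10 (ratio 0.460, 0.325 to 0.646), and in cells with Cd3 its ratio was 0.513.

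Il2ra, the high-affinity alpha chain, was rare, at 12.1, 15.3 and 35.0 CPM in 11, 17 and 60 cells. It was 2.29-fold higher in the combination than with IL-10/2-Trikine (1.43 to 3.82). After thinning, 0.315%, 0.622% and 3.1% of resting NK cells held an Il2ra UMI, against 0.722%, 1.02% and 0.971% of B cells. The thinned B cell shares with IL-10/2-Trikine and in the combination rested on 1 cell each. Before thinning the shares were 3.28%, 3.24% and 7.16% of resting NK cells and 1.96%, 11.2% and 2.91% of B cells. With 11.2% there, B cells cannot be taken as a background for this gene. Thinning before the rule gave a log2 ratio of -0.16 in place of the higher value. Pdcd1, which encodes the target of anti-PD-1, had 3, 6 and 10 UMIs in all, a level of 2.60, 3.98 and 4.22 CPM, against 125 to 221 CPM in cells with Cd3.

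Of 16 cytokine receptor chains measured, 0 were past 1.5-fold higher and 2 past 1.5-fold lower with IL-10/2-Trikine than with mono-IL-10, Il10ra and Il18rap. The shares over all genes were 3.57% higher and 8.28% lower. Il18rap, a chain of the IL-18 receptor, stood at 473, 304 and 365 CPM, and its partner Il18r1 at 361, 254 and 204 CPM. In the combination 4 of 18 were past 1.5-fold higher than with IL-10/2-Trikine and 0 lower, where all genes gave 6.45% and 3.74%. The 4 were Il2ra, Il21r, Il4ra and Tgfbr1. Il21r, the receptor of IL-21, stood at 105, 88.3 and 135 CPM and Il4ra at 41.6, 36.5 and 65.8 CPM.

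Of 11 STAT3-response genes measured, 4 were past 1.5-fold lower and 0 higher with IL-10/2-Trikine than with mono-IL-10, with a median log2 ratio of -0.47 (-1.31 to -0.19). Socs3, a feedback inhibitor induced by STAT3, stood at 268, 108 and 123 CPM, 2.49-fold lower with IL-10/2-Trikine. Pim1, a kinase gene that STAT3 and STAT5 both induce, stood at 1196, 741 and 1005 CPM. The other pair, Junb and Fos, are also immediate-early genes. In the combination 3 of 11, Bcl3, Il4ra and Il21r, were past 1.5-fold higher than with IL-10/2-Trikine, with a median of 0.32 (0.05 to 0.75). Bcl3, a nuclear IκB family member, stood at 130, 135 and 227 CPM. In cells with Cd3 the medians of this list were -0.44 and 0.39. Of 12 genes there, 4 were past 1.5-fold lower and 0 higher at the first step, where 9.45% of all genes were lower. At the second step 4 were higher and 1 lower, where 5.29% and 3.35% of all genes were.

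Of 23 IL-2 and STAT5 response genes, 1 was past 1.5-fold higher and 6 lower with IL-10/2-Trikine, with a median log2 ratio of -0.04. These were 4.35% and 26.1% of the list, beside 3.57% and 8.28% of all genes. The share of higher genes thus lay near that of all genes. The higher one was Cish, a feedback inhibitor induced by STAT5, at 39.0, 60.4 and 67.1 CPM (ratio 1.55, 1.07 to 2.27). A Cish UMI was found in 4.42%, 5.60% and 5.39% of thinned cells and in 11.6%, 13.5% and 14.2% before thinning. Neighbouring intervals of these shares overlapped. The lower ones included Myc, at 80.5, 26.6 and 24.5 CPM, and Prdm1, which encodes Blimp-1, at 69.3, 26.6 and 27.4 CPM. Of the 10 core STAT5 targets that the study used for its pancreatic tumor model, 0 passed 1.5-fold in either comparison. Their median log2 ratios were 0.15 and -0.12. The study took this list from the literature. It holds Klrb1c, a gene of the rule, so it is not independent evidence. Tnfrsf9, which encodes the costimulatory receptor 4-1BB, was higher at each step, at 229, 299 and 392 CPM.

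Of 12 JAK and STAT genes 2 were past 1.5-fold lower with IL-10/2-Trikine than with mono-IL-10 and 2 past 1.5-fold higher in the combination than with IL-10/2-Trikine. Over all genes 8.28% were lower at the first step and 6.45% higher at the second. The median log2 ratios of the 12 were -0.35 and 0.31, beside -0.08 and 0.01 over all genes. The ratios of all 12 were below 0 and then above 0. The highest at the first step, -0.024, was still above the median of all genes. The lowest at the second, 0.0136, was below that median, 0.0150. Jak2 stood at 163, 127 and 197 CPM, Stat3 at 1022, 848 and 1042 CPM, and Stat5b at 106, 67.7 and 68.3 CPM. In cells with Cd3 the medians of this list were -0.47 and 0.38, with 5 of 12 lower at the first step and 2 higher at the second.

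The immediate-early genes, whose transcripts appear within minutes of a stimulus and without new protein, were the list with the most members lower. Of 23 measured, 13 were past 1.5-fold lower and 0 higher with IL-10/2-Trikine than with mono-IL-10, and their median log2 ratio was -0.67 (-0.79 to -0.24). In the combination 3 were past 1.5-fold higher than with IL-10/2-Trikine and 0 lower, with a median of 0.19.

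Jun, which encodes a subunit of the AP-1 factor, stood at 392 CPM with mono-IL-10, 90.9 CPM with IL-10/2-Trikine and 92.4 CPM in the combination. It was 4.31-fold lower with IL-10/2-Trikine than with mono-IL-10 (ratio 0.232, 0.190 to 0.281) and did not return in the combination. Fos, the AP-1 partner of Jun, stood at 397, 139 and 115 CPM, and Zfp36, whose product destabilises cytokine mRNAs, at 448, 133 and 110 CPM. Junb was the most abundant AP-1 gene of these, at 2500, 1334 and 1384 CPM.

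Nfkbia, which encodes the NF-κB inhibitor IκBα, stood at 2443, 1431 and 2006 CPM, and Nfkbiz, an atypical IκB, at 609, 331 and 590 CPM. Nfkbiz was 1.84-fold lower and then 1.79-fold higher, which brought it close to its mono-IL-10 level. Tnfaip3, which encodes A20, stood at 777, 481 and 554 CPM. Nr4a3, an orphan nuclear receptor gene induced by receptor signals, stood at 229, 155 and 247 CPM, and Dusp1 and Dusp2, phosphatases of MAP kinases, at 590, 385 and 384 CPM and at 1427, 855 and 938 CPM.

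The promoters of 4 of these genes are shown as examples that carried letter matches to motifs of factors that drive immediate-early transcription. Each is the 250 bases before the annotated transcription start, from RefSeq on GRCm38.p6, written 5′ to 3′ on the strand of the gene, with the matches in capitals. They are Fos (chr12:85473640-85473889, plus strand, 1 NF-κB match), Zfp36 (chr7:28379229-28379478, minus strand, 1 serum response match and then 1 STAT match, TTCNNNGAA), Nfkbia (chr12:55492648-55492897, minus strand, 1 NF-κB match) and Tnfaip3 (chr10:19015411-19015660, minus strand, 1 AP-1 match, TGANTCA, and 2 NF-κB matches).
Fos: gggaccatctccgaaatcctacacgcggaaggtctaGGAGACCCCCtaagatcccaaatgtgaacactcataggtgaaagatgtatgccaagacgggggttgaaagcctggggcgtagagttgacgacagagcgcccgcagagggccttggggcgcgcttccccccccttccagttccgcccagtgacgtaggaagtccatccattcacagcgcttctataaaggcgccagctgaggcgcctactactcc
Zfp36: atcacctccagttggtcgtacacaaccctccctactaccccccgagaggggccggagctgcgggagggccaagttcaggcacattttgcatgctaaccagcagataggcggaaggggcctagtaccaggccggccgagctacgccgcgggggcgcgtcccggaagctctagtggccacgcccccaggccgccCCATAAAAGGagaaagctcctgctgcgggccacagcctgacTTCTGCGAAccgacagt
Nfkbia: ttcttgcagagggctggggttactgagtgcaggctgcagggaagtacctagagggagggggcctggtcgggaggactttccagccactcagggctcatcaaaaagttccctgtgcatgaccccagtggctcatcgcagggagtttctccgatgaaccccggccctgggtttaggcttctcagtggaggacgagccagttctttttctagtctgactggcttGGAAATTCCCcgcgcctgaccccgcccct
Tnfaip3: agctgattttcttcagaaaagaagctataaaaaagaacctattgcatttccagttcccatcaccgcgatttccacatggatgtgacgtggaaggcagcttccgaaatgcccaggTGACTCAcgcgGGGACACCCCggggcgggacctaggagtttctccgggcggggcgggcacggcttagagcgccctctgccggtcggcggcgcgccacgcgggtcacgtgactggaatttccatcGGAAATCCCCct

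Of the 26 immediate-early genes 22 had a promoter in the RefSeq table. On both strands, an NF-κB match was found in 6 of the 22 (27.3%), in Fos, Fosb, Fosl2, Ier3, Nfkbia and Tnfaip3, against 3.74% of 27025 promoters of the same length. A serum response match was found in 2 (9.09%, against 1.41%) and a cAMP response element, TGACGTCA, in 2 (9.09%, against 1.60%). An AP-1 match was found in 1 (4.55%, against 6.85%) and a STAT match in 1 (4.55%, against 7.14%). Jun and Junb had none of these letters in the window. The promoters shown were all of genes lower with IL-10/2-Trikine than with mono-IL-10, and do not stand for every match. Matches also lay in Fosb, Dusp1, Dusp5, Btg2, Fosl2 and Ier3. The log2 ratios of these genes were -0.55, -0.62, -0.19, -0.11, 0.12 and 0.23, the last under the UMI minimum. A link between matches and ratios was not tested. A match is a description of letters and no measure of binding.

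Values in other cells stand beside the immediate-early result. In the NK receptor cells with Cd3 the median log2 ratio was -0.51, with 11 of 26 genes lower, where 9.45% of all genes were lower. In macrophages it was 0.26, with 5 of 26 higher and 0 lower, where 4.12% of all genes were higher and 5.00% lower. In B cells it was 0.14, with 9 of 23 higher and 2 lower, where 6.80% of all genes were higher and 30.3% lower and the median over all genes was -0.29. After thinning, a Jun UMI was found in 24.3%, 8.71% and 5.53% of resting NK cells and in 26.9%, 8.16% and 13.6% of B cells. A Fos UMI was found in 20.2%, 7.88% and 7.14% of resting NK cells and 31.6%, 12.2% and 8.74% of B cells, and both genes were highest with mono-IL-10 in each cell type. The shares before thinning were 47.8%, 15.5% and 14.2% for Jun and 34.6%, 14.1% and 14.7% for Fos in resting NK cells. In droplets of free RNA Jun was 305, 125 and 171 CPM and Zfp36 483, 295 and 340 CPM, and the part of free RNA in the result was not tested.

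Of 27 transcription factors outside AP-1 measured, 12 were past 1.5-fold lower and 0 higher with IL-10/2-Trikine than with mono-IL-10, with a median log2 ratio of -0.55 (-0.80 to -0.23). In the combination 3 of 28 were past 1.5-fold higher than with IL-10/2-Trikine and 0 lower. The list was lower with IL-10/2-Trikine in cells with Cd3 too, at a median of -0.44. There 11 of 29 were past 1.5-fold lower and 1 higher, where 9.45% and 3.58% of all genes were.

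Klf2, which keeps lymphocytes quiescent and circulating, stood at 614, 299 and 302 CPM. Tcf7, which encodes TCF-1, stood at 138, 56.4 and 65.0 CPM, and its thinned share of cells was 12.3%, 4.77% and 5.53%, against at most 1.02% of B cells, and 24.2%, 10.1% and 11.5% before thinning. Both were about as low in the combination as with IL-10/2-Trikine. In cells with Cd3, Tcf7 stood at 142, 161 and 81.5 CPM, so the first step there had a ratio of 1.14 against 0.410 in resting NK cells. Bach2, a repressor of effector genes, stood at 455, 256 and 369 CPM, Zeb2, a factor of terminal maturation, at 331, 182 and 248 CPM, and Tox at 314, 181 and 168 CPM. Ahr, the aryl hydrocarbon receptor gene, stood at 58.0, 21.9 and 19.8 CPM.

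Eomes, a factor of the NK lineage, was 1.42-fold lower with IL-10/2-Trikine than with mono-IL-10 and 1.39-fold higher in the combination. Tbx21, which encodes T-bet, stood at 213, 208 and 246 CPM, within 1.5-fold throughout. Gata3 stood at 74.5, 59.7 and 112 CPM, 1.87-fold higher in the combination than with IL-10/2-Trikine (1.47 to 2.40), in 68, 79 and 205 cells.

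IFN-γ-induced GTPases and chemokines were higher in the combination. Of 18 measured, 10 were past 1.5-fold higher and 1 lower than with IL-10/2-Trikine, with a median log2 ratio of 0.69 (0.25 to 1.10). With IL-10/2-Trikine, 6 of 14 were past 1.5-fold lower than with mono-IL-10 and 0 higher, with a median of -0.47 (-0.89 to -0.10), so several combination levels lay near the mono-IL-10 levels.

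Gbp5, a guanylate-binding protein gene, stood at 148, 115 and 246 CPM and was 2.14-fold higher in the combination than with IL-10/2-Trikine (1.80 to 2.55), in 99, 115 and 290 cells. Igtp and Irgm1, immunity-related GTPase genes, stood at 55.4, 34.5 and 69.6 CPM and at 30.3, 11.9 and 32.1 CPM. Gbp5 passed its mono-IL-10 level, whereas Irgm1 came back to it. Gbp6, at 32.9, 5.97 and 21.5 CPM, was still below it. Iigp1 rested on few cells, with 7 UMIs in 2 cells with IL-10/2-Trikine, 85.7% of them in 1 cell.

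The same list was higher in the combination in the other cells too. Its median log2 ratio was 0.44 in the cells with NK receptor and Cd3 transcripts, with 7 of 21 genes past 1.5-fold higher and 2 lower. It was 0.62 in macrophages, with 11 of 20 genes past 1.5-fold higher, and 0.86 in B cells, with 6 of 10. In those cells 5.29%, 3.17% and 13.7% of all genes were past 1.5-fold higher. Of 12 type I interferon response genes measured in resting NK cells, 3 were past 1.5-fold higher in the combination, where 6.45% of all genes were. Isg15 and Isg20 were among the 3. Isg15 stood at 68.4, 85.0 and 152 CPM.

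**Figure D4:**
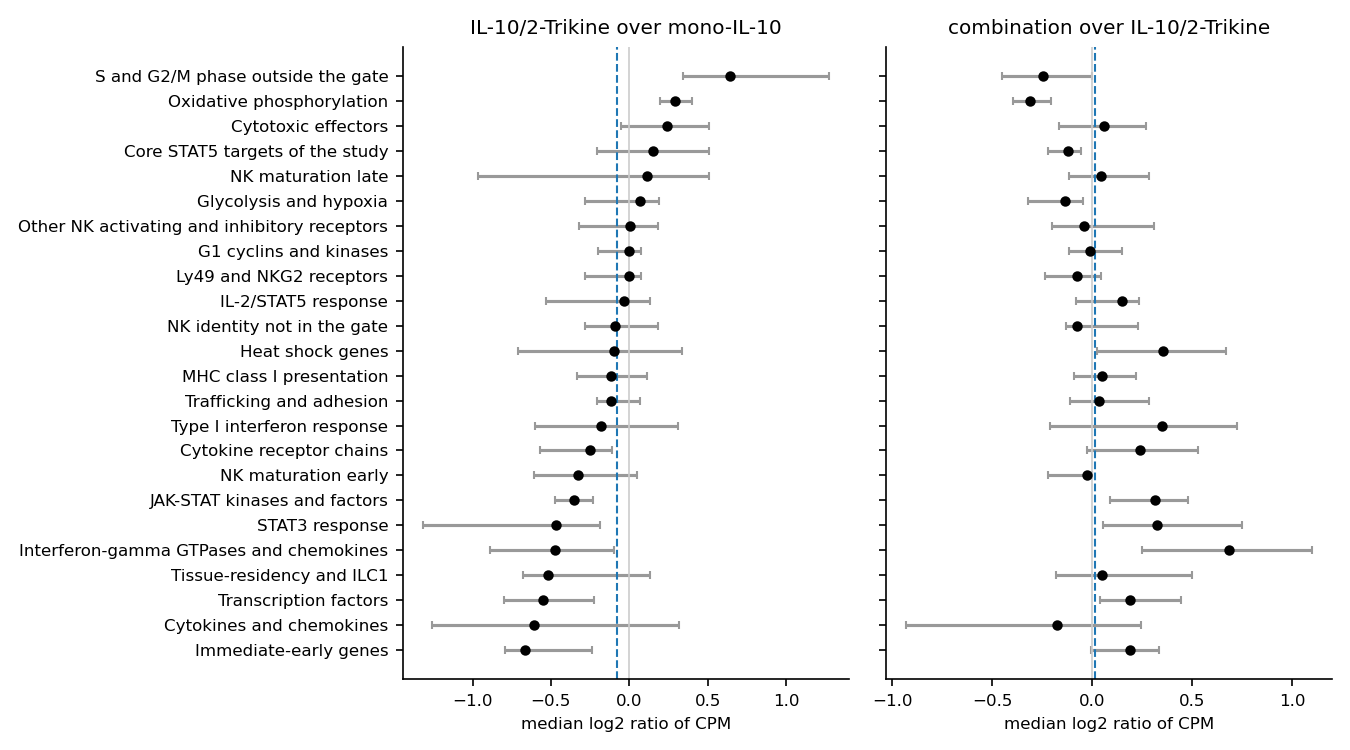
Median log2 ratio of CPM of each gene list in resting NK cells (points, with exact order-statistic 95% intervals over genes) for IL-10/2-Trikine over mono-IL-10 (left) and the combination over IL-10/2-Trikine (right), with the median of all genes as a dashed line. Immediate-early genes lie at -0.67 on the left and 0.19 on the right, and IFN-γ GTPases and chemokines at -0.47 and 0.69.

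Markers of NK maturation did not move as a block. Of 18 genes of late maturation, 4 were past 1.5-fold higher and 6 lower with IL-10/2-Trikine than with mono-IL-10, with a median log2 ratio of 0.11. The higher ones were Cx3cr1, Ly6c2, Cma1 and Serpinb9b. Ly6c2 stood at 178, 325 and 306 CPM and Cma1, which encodes a mast cell type chymase, at 55.4, 97.6 and 100 CPM. The lower ones were Zeb2, Prdm1, Klf2, S1pr1, Ccl3 and Cd55, which are factors, an egress receptor, a chemokine and a complement regulator. Klrg1, an inhibitory receptor of mature cells, stood at 134, 183 and 195 CPM, and a Klrg1 UMI was found in 7.89% (5.17 to 11.4%), 16.2% (13.0 to 19.8%) and 18.3% (15.6 to 21.3%) of thinned cells, against at most 0.971% of B cells. Before thinning these shares were 23.3% (18.9 to 28.2%), 30.7% (26.8 to 34.9%) and 33.7% (30.5 to 37.0%), and the first 2 intervals overlapped.

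Of 16 genes of early maturation, 4 were past 1.5-fold lower with IL-10/2-Trikine and 0 higher, Tcf7, Ltb, Xcl1 and Ikzf2. The log2 ratio of Ikzf2, -0.65, became 0.45 in the larger set of cells chosen after thinning. Cd27 stood at 78.8, 90.9 and 78.1 CPM and Itgam, which encodes CD11b, at 230, 194 and 249 CPM, so the surface pair that stages murine NK cells was within 1.5-fold in both comparisons. Between the combination and IL-10/2-Trikine, 1 late gene and 3 early genes passed 1.5-fold.

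Among 17 Ly49 and NKG2 receptor genes, 1 was past 1.5-fold higher and 1 lower with IL-10/2-Trikine, and 0 in either direction in the combination. All genes gave 3.57% higher and 8.28% lower in the first comparison and 6.45% and 3.74% in the second. The counts of the first comparison lay near these shares. Klra5, which encodes the receptor Ly49E, was the higher one, at 133, 263 and 275 CPM in 40, 107 and 166 cells, a ratio of 1.97 (1.63 to 2.39). In cells with Cd3 it was 67.8, 260 and 148 CPM. Ly49 genes are near copies of each other and differ between the parent strains of these hybrid mice, so reads may be split or lost among them and their levels are uncertain.

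Residency genes were past 1.5-fold lower with IL-10/2-Trikine than with mono-IL-10 in 5 of 12 measured and past 1.5-fold higher in 0. Among all genes 8.28% were lower and 3.57% higher. The log2 ratio was above 0 for 3 of the 12, with 0.54 the highest. The 5 lower genes were Cd69, Tnfsf10, Inpp4b, Spry2 and Ikzf2, the last with the opposite direction after thinning before the choice of cells. Spry2, a brake on receptor tyrosine kinase signals, stood at 188, 96.2 and 92.4 CPM. Cxcr6, a chemokine receptor of type 1 innate lymphoid cells, was at 9.28 to 11.3 CPM, against 149 to 288 CPM in cells with Cd3. Itga1 stood at 97.8, 142 and 147 CPM, and 9.46%, 10.6% and 12.7% of thinned cells held an Itga1 UMI (22.1%, 26.5% and 26.0% before thinning).

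Resting NK cells with an Itga1 UMI, 74, 139 and 218 of them, were set against those with Itga2 and no Itga1, 164, 218 and 339. The comparison covered 406 genes outside the rule, taken from the gene lists and the named genes and not from all genes. Of these, 9 were higher in the Itga1 cells in each of the 3 libraries beyond counting error and 14 were lower. These cells share their library, so the 3 libraries are the only repeats. The median UMIs of both sets were close, 3329 and 3371 with mono-IL-10 and 2805 and 3036.5 with IL-10/2-Trikine.

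Ctla4, which encodes an inhibitory receptor, stood at 172, 221 and 173 CPM in Itga1 cells and at 86.8, 63.4 and 51.8 CPM in the others, a ratio of 1.98, 3.49 and 3.33. Cd7 was 1.62-fold, 1.99-fold and 1.69-fold higher and Gzmk 1.82-fold, 2.24-fold and 2.85-fold higher. Rgs1, a regulator of chemokine receptor signals, was 1.5-fold, 1.38-fold and 1.43-fold higher. Cd74 and H2-Aa, class II MHC genes, were also among the 9, although 51.2% of the mono-IL-10 UMIs of H2-Aa lay in 1 cell.

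Other genes, with effector genes among them, were lower in the Itga1 cells. Ccnd2, which encodes cyclin D2, was 0.484, 0.501 and 0.465 of the level in the Itga2 cells, and Serpinb9b 0.565, 0.445 and 0.484. Eomes was at 0.753, 0.429 and 0.514, Gzmb at 0.572, 0.612 and 0.782 and Prf1 at 0.807, 0.631 and 0.761. Bcl2, which encodes a survival factor, was at 0.656, 0.655 and 0.687. Gzma, Ccl5, Nkg7, Irf8 and Nfkbia were lower too, while Gzma remained the most abundant of the granzymes named here.

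**Figure D5:**
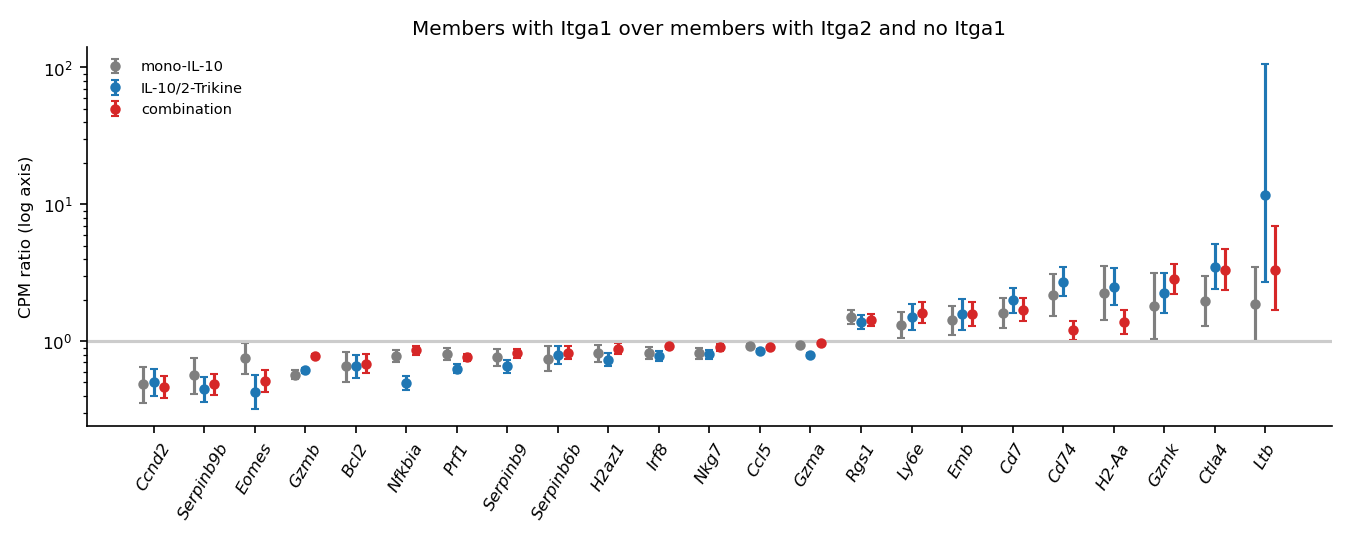
CPM ratio (log axis) of resting NK cells with an Itga1 UMI over those with Itga2 and no Itga1, with exact conditional 95% intervals. Shown are the 23 of 406 list and named genes that differed beyond counting error in one direction in all 3 libraries. Ccnd2 lies near the low end at 0.484, 0.501 and 0.465 and Ctla4 near the high end at 1.98, 3.49 and 3.33.

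Of 20 S and G2/M genes of the cell cycle measured, none used by the rule, 10 were past 1.5-fold higher with IL-10/2-Trikine than with mono-IL-10 and 0 lower, with a median log2 ratio of 0.64 (0.34 to 1.27). All genes gave 3.57% higher and 8.28% lower there. In the combination 5 of 21 of these genes were past 1.5-fold lower than with IL-10/2-Trikine and 1 higher, beside 3.74% and 6.45% of all genes. Stmn1, a microtubule regulator of dividing cells, stood at 33.8, 97.6 and 71.3 CPM, and Dut, an enzyme of nucleotide synthesis, at 38.1, 93.6 and 46.0 CPM. A Stmn1 UMI was found in 34, 70 and 95 cells. With each cell weighted alike the median was 0.26, and with thinning before the rule 1.66. In droplets of free RNA Stmn1 was 331, 595 and 435 CPM, and the part of free RNA in the result was not tested. Cells removed by the cycling limit were 0.0360%, 0.141% and 0.100% of kept barcodes.

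Of 32 genes of oxidative phosphorylation measured, 0 passed 1.5-fold with IL-10/2-Trikine against mono-IL-10 and the median log2 ratio was 0.29 (0.19 to 0.40). In the combination 2 were past 1.5-fold lower and the median was -0.31 (-0.40 to -0.21). Ndufa4, a subunit associated with the respiratory chain, stood at 384, 559 and 444 CPM and Cox7b, of complex IV, at 201, 265 and 178 CPM. In cells with Cd3 the medians were 0.16 and -0.15. Of 19 glycolysis and hypoxia genes 0 were past 1.5-fold higher and 3 lower with IL-10/2-Trikine, with a median of 0.07, and Gapdh stood at 460, 548 and 459 CPM.

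Of 11 heat shock genes, 4 were past 1.5-fold higher in the combination than with IL-10/2-Trikine and 0 lower. Over all genes 6.45% were higher and 3.74% lower. In macrophages 4 of 11 were higher and 0 lower too, where 3.17% of all genes were higher. In cells with Cd3, 0 of 12 were higher and 1 lower, and in B cells 0 of 7 passed 1.5-fold. Hspa1a, which encodes an inducible HSP70, stood at 12.1, 7.30 and 24.9 CPM, in 10, 4 and 19 cells. Of 19 class I MHC presentation genes 0 passed 1.5-fold in the combination and 2 were lower with IL-10/2-Trikine than with mono-IL-10. The share of all genes lower in the latter comparison was 8.28%.

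The genes with the largest ratios fell in 2 kinds. Some were spread over many cells. Mir155hg, the host transcript of miR-155, stood at 44.2, 53.1 and 140 CPM in 39, 59 and 172 cells, 2.63-fold higher in the combination than with IL-10/2-Trikine (2.05 to 3.4). Marchf3, a ubiquitin ligase gene, stood at 38.1, 48.5 and 113 CPM in 31, 54 and 168 cells, and Bcl2a1d, of the BCL-2 family, at 77.1, 47.8 and 108 CPM. Arrdc3, an arrestin family gene, stood at 28.6, 61.1 and 83.5 CPM in 29, 81 and 160 cells and was 2.14-fold higher with IL-10/2-Trikine than with mono-IL-10 (1.42 to 3.29). Tuba1b, a tubulin gene, stood at 31.2, 71.7 and 46.4 CPM.

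Others lay in a few cells or were, as in free RNA, lowest with IL-10/2-Trikine. Sox5 stood at 59.7, 2.66 and 38.4 CPM in resting NK cells and at 422, 58.5 and 187 CPM in droplets of free RNA. Negr1 stood at 36.4, 2.66 and 53.2 CPM, beside 518, 77.8 and 215 CPM. Tcf7l2 and Dock4 had 437, 103 and 269 CPM and 301, 59.8 and 156 CPM in these droplets, and in resting NK cells 30.3, 5.97 and 51.9 CPM and 34.6, 11.9 and 60.8 CPM. The highest library in free RNA was mono-IL-10 for all 4, while in resting NK cells it was mono-IL-10 for Sox5 and the combination for the other 3, and the part of free RNA was not tested. Ebf1, a B cell factor, had 77, 0 and 13 UMIs, in 14, 0 and 4 cells, and an upper limit of 2.45 CPM with IL-10/2-Trikine. Ifitm1 had 83.1% of its mono-IL-10 UMIs in 1 cell, and Cacna2d1 all of its IL-10/2-Trikine UMIs.

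Among the lowest ratios in the combination, Hes1, a target of Notch, stood at 54.5, 55.1 and 32.5 CPM in 43, 58 and 55 cells. Cbx5, which encodes a heterochromatin protein, stood at 32.0, 61.1 and 30.4 CPM, and Mrps26, of the mitochondrial ribosome, at 33.8, 52.4 and 23.6 CPM. These were 1.70-fold, 2.01-fold and 2.22-fold lower in the combination than with IL-10/2-Trikine.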

How the data were processed

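Droplet single-cell transcript libraries of CD45+ cells from KP1 tumors were measured, 1 library per group. The authors deposited raw UMI counts per gene and barcode for 33696 features, with introns counted per the study's methods. The file headers name Cell Ranger 8.0.0, the methods another version and build, and the labels mm10, so no coordinates were taken from the files. Barcodes needed 200 genes and a mitochondrial share of 20% or less, and resting NK cells were chosen by the UMI rule. Counts were summed per library and divided by the total (CPM). CPM ratios carry exact conditional binomial intervals (tested on simulated data), CPM Poisson intervals, shares exact binomial intervals and ratios of shares log-scale normal intervals, all at 95%.

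Members, gene lists and comparisons were chosen with earlier results of these data known. Genes named are the 12 highest and 12 lowest ratios of each comparison of genes that reached 50 CPM in 1 library and 50 UMIs over both (not the gate genes, nor genes of mitochondria, ribosomes, antigen receptors, hemoglobin or sex chromosomes, nor unnamed models), and in each of 32 lists the 3 highest levels and the 3 highest and 3 lowest ratios, with the receptor chains and the genes of the thinned shares. A few list members past 1.5-fold were named after their values were seen. The lists held 514 genes, and 3 more symbols were not matched. Alternatives were other limits in the rule, thinning to 2000 UMIs before it, TMM factors (edgeR 4.0.16), median-of-ratios factors (DESeq2 1.42.0), another total, equal cell weights and other UMI minimums. The planned doublet call (scrublet in scanpy 1.11.5) marked 0 barcodes in 2 libraries, so the 10% highest scores were left out instead. This and leaving out the cell with the most UMIs of a gene were chosen after seeing the data. Python 3.11.15, scipy 1.17.1 and R 4.3.3 were used.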

Additional observations from a re-analysis of the deposited data

Results flagged for a closer look

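For 9 of 555 log2 ratios compared, resting NK cells and NK receptor cells with Cd3 passed 1.5-fold in opposite directions, where 178 had passed it in resting NK cells. The 555 were only a part of the ratios, as 6170 and 7087 genes were measured in the 2 comparisons. So 9 and 178 give no share over all genes. Over all genes 3.57% were higher and 8.28% lower in the first comparison, and 6.45% and 3.74% in the second. With 1 library per group the difference was not tested for any of them. Between the combination and IL-10/2-Trikine the log2 ratio in resting NK cells was -1.0 for Ccl3 and -0.74 for Ifng, against 1.34 and 0.99 in cells with Cd3. It was 0.93 for Cd14 and 0.84 for H2-Aa, against -1.16 and -0.83, and 30.8% of the Cd14 UMIs in the combination lay in 1 cell. For IL-10/2-Trikine over mono-IL-10 it was 0.69 for Cx3cr1, -0.65 for Ikzf2, -0.97 for S1pr1, -1.68 for Ifitm1 and 1.52 for Nfib. In cells with Cd3 the ratio was 0.564 for Cx3cr1, 1.52 for Ikzf2, 1.56 for S1pr1, 4.26 for Ifitm1 and 0.387 for Nfib. Of the Nfib UMIs with IL-10/2-Trikine 92.9% lay in 1 cell, and of the Ifitm1 UMIs with mono-IL-10 83.1%.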

How the results depend on the processing

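Of the recomputed summary values 223 stayed close to the reported ones and 19 moved, and of the gene ratios 6826 stayed close, 418 moved and 33 changed direction. The cause of these shifts was not tested, except that other minimums change how many genes are compared. Thinning before the rule also changed the cells, to a larger set of 488, 633 and 1002 with full counts summed, which could hold cells barred at full depth. Thinning before the rule gave a share ratio of 1.17 for IL-10/2-Trikine over mono-IL-10, 532 genes higher and 900 lower, and 442 lower in the combination than with IL-10/2-Trikine (main 265). It gave medians of the S and G2/M genes of 1.66 and -0.81 (main 0.64 and -0.24), where equal cell weights gave 0.26 and a minimum of 200 UMIs 0.31 for the first. TMM factors gave 348 higher and 339 lower with IL-10/2-Trikine, and median-of-ratios factors 334 higher. With no minimum these counts were 1631 and 2178, and 1940 and 1964 in the combination, and with 200 UMIs 35 and 115, and 124 and 33. The share of calls that were higher in the combination then went from 63.3% to 49.7% and 79.0%, and to 50.3% with thinning before the rule.

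Log2 ratios that changed direction for IL-10/2-Trikine over mono-IL-10 were these. With all 6 T cell genes at 0, H2-Aa had 0.51, Ifitm1 1.29 and Ppie -0.071. Ifitm1 had 0.86 with 3 NK UMIs, 0.40 with myeloid genes at 0 and 2.69 with thinning before the rule, which gave Ikzf2 0.45, Spp1 -0.13 and Nfib -0.58. Equal cell weights gave Mcm2 -0.072 and Nfib -0.70. Nfib had -2.38 with Mki67 and Top2a at 0 and -1.71 without its top cell. Between the combination and IL-10/2-Trikine, thinning before the rule gave Cd14 -0.85, Chgb -0.50, Cxcl9 1.5, Havcr2 -0.29, Ifitm1 -0.55, Ifitm3 -0.59 and Il2ra -0.16. With all 6 T cell genes at 0, Cd14 had -0.045, Cd74 -0.56 and H2-Aa -0.10. With myeloid genes at 0, Cd14 had -0.56 and Cxcl9 1.44, and with 3 NK UMIs, Cxcl9 had 2.14 and Chgb -0.60. Without the highest doublet scores Cd14 had -0.85, Cd74 -0.0047 and Ifitm3 -0.013. Cxcl9 had 0.67 with equal cell weights and 1.93 without its top cell, and Chgb -0.70 with Mki67 and Top2a at 0. Depth limits genes below about 50 UMIs in a pair. No paired analysis was possible because each group was 1 library.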
